A study of Mus musculus with 6 samples.

Results

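Major histocompatibility complex (MHC) genes of class I and class II, together with the genes that load and regulate them, were followed in aortic messenger RNA of Mymsl knockout (KO) and wild-type (WT) mice. Members were chosen by gene name. Every row whose name starts with H2-, the prefix of the mouse MHC, was taken except 1 row of the H2-Ke group, and B2m, Tap1, Tap2, Tapbp, Psmb8, Psmb9, Psmb10, Psme1, Psme2, Nlrc5, Ciita and Cd74 were added. This gave 56 of the 53735 rows of the table, 42 on the class I side and 14 on the class II side. Mymsl is a long noncoding RNA gene. Both groups were aortas of mice, labelled Mymsl WT and Mymsl KO, with 3 libraries each. The RNA is described as that of purified medial smooth muscle, and no treatment is named. The sources used here do not give the knockout allele, the strain, sex or age of the mice, or whether a library is 1 animal or a pool, and p-values therefore cover only the library-to-library spread.

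Class I molecules present peptides made inside the cell to cytotoxic T cells. Nearly all nucleated cells carry them as a heavy chain, such as H2-K1 or H2-D1, bound to the light chain beta-2 microglobulin (B2m). Their peptides are cut by the proteasome, carried into the endoplasmic reticulum by the transporter of Tap1 and Tap2, and loaded with the help of tapasin (Tapbp). Class II molecules present peptides from endocytosed protein to helper T cells, and are made mainly by dendritic cells, macrophages and B cells. The alpha and beta chains of class II assemble on the invariant chain Cd74, and H2-DM exchanges the first peptide for others. Nlrc5 and Ciita are related transactivators of class I and class II genes. Both systems are classical targets of interferon-gamma, and vessel wall cells can be made to express class II by it.

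Promoters of members are shown because class I and class II genes share a conserved element, the Y box. The sequences come from RefSeq promoters on GRCm38.p6, and 21 of the 30 members with enough reads to be tested matched by symbol. Promoters of 300 bases (250 before the start and 50 after) were searched on both strands for CTGATTGG (Y box), the core of the interferon-stimulated response element and the kappa B site of class I promoters. Windows of 200 bases, from 190 before the start, are given 5′ to 3′ on the strand of the gene, with each match in capitals. H2-K1 (chr17:34000324-34000523, minus strand) and H2-D1 (chr17:35262904-35263103, plus strand) are the classical heavy chains and hold the kappa B letters and then the Y box, read on the opposite strand. RefSeq lists more than 1 start for H2-K1, and the window follows 1 of them. H2-T23 (chr17:36032692-36032891, minus strand) is a non-classical heavy chain, and B2m (chr2:122147497-122147696, plus strand) is the light chain. Psmb9 (chr17:34187321-34187520, minus strand) has its start 226 bases from that of Tap1, which is transcribed the other way. H2-Aa (chr17:34287814-34288013, minus strand) and H2-Eb1 (chr17:34305677-34305876, plus strand) are class II chains.
H2-K1: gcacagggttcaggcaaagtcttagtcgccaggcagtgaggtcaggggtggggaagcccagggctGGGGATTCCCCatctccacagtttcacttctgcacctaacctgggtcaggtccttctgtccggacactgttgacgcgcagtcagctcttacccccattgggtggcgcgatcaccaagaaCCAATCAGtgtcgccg
H2-D1: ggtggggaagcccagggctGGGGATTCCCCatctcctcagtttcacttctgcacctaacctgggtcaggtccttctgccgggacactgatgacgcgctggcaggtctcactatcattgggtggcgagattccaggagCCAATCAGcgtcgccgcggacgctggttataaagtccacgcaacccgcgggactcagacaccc
H2-T23: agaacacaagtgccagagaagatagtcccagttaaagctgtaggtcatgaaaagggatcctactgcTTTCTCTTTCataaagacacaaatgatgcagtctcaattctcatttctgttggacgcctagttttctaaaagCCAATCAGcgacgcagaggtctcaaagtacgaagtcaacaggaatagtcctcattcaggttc
B2m: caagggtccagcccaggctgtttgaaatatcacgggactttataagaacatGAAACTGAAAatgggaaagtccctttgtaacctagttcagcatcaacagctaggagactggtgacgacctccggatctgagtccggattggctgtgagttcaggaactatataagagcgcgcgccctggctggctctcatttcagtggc
Psmb9: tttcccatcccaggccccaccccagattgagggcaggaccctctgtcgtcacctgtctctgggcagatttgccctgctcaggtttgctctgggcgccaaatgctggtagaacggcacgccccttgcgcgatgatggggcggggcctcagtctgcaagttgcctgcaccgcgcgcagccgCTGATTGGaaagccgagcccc
H2-Aa: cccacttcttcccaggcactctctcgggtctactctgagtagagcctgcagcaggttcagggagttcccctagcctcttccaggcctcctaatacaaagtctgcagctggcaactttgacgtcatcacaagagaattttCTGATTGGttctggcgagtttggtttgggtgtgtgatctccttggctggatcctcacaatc
H2-Eb1: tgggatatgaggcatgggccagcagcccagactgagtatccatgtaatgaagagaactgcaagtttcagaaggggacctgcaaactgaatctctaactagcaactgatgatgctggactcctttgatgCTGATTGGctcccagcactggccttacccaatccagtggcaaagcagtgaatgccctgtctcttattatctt

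The Y box letters stood in the promoters of 7 of 17 class I members (H2-D1, H2-K1, H2-Q6, H2-Q7, H2-T23, Psmb9 and Tap1) and 2 of 4 class II members (H2-Aa and H2-Eb1), against 4.7% of 27025 genes with a promoter in the table. Psmb9 and Tap1 share the same copy. The interferon element core stood in 4 class I members (B2m, H2-T22, H2-T23 and Psme1), against 3.99% of all genes. H2-D1, H2-K1 and H2-Q6 held the kappa B letters, which 9 genes held in all (0.0333%). Heavy chain promoters are related copies of each other, and such matches describe letters only, not binding.

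Total counts per library lay between 20048216 and 25521123, and smooth muscle markers were abundant throughout: 7 of 7 were tested, and their summed level was between 40100 and 54000 CPM (counts scaled to the effective library size). No row carried the name Mymsl. The clone-named row RP23-57D10.3 held 314, 378 and 273 reads in the WT libraries and 0 in each KO library. It was the only row called between KO and WT among 14145 tested, which is 0.00707% of them. Mitochondrially encoded rows held 5.66% to 9.02% of WT counts and 10% to 18.9% of KO counts.

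Of the 56 members, 30 passed the filter on low counts (23 of class I, 7 of class II). Between KO and WT, edgeR's quasi-likelihood test with Benjamini-Hochberg adjustment over all rows called 0 members (0.00707% of all rows called), and adjusted p ran from 0.299 to 0.885. DESeq2, which called 1.85% of the rows it adjusted, called 0 of the 20 members it adjusted, and limma-voom called 0 of 30. At an unadjusted p under 0.05, 3 members were found in edgeR (Psmb8, H2-T22 and H2-M3), where 14.6% of all rows were. All 30 tested members had a fitted log2 fold change above 0, against 52.5% of all rows. The median was 0.54 for class I, 1.04 for class II and 0.01 for all rows.

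A single library carried that direction. KO replicate 3 had the highest level of the 6 libraries for each of the 23 class I and 7 class II members tested, where it was highest for 16.2% of all rows. It stood at least 2-fold above the mean of the other 5 libraries for 14 class I and 6 class II members, and for 2.29% of all rows. Relative to the WT mean, the median class I member was at log2 0.15, -0.14 and 1.21 in KO replicates 1, 2 and 3. The median class II member was at -0.41, -1.09 and 2.44. KO libraries lay above every WT library for only 2 of the 30 tested members, Psme1 and H2-M3 (10.5% of all rows), and below every WT library for 0 (11.3% of all rows). Without KO replicate 3, the class medians were 0.03 and -0.63.

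**Figure D1:**
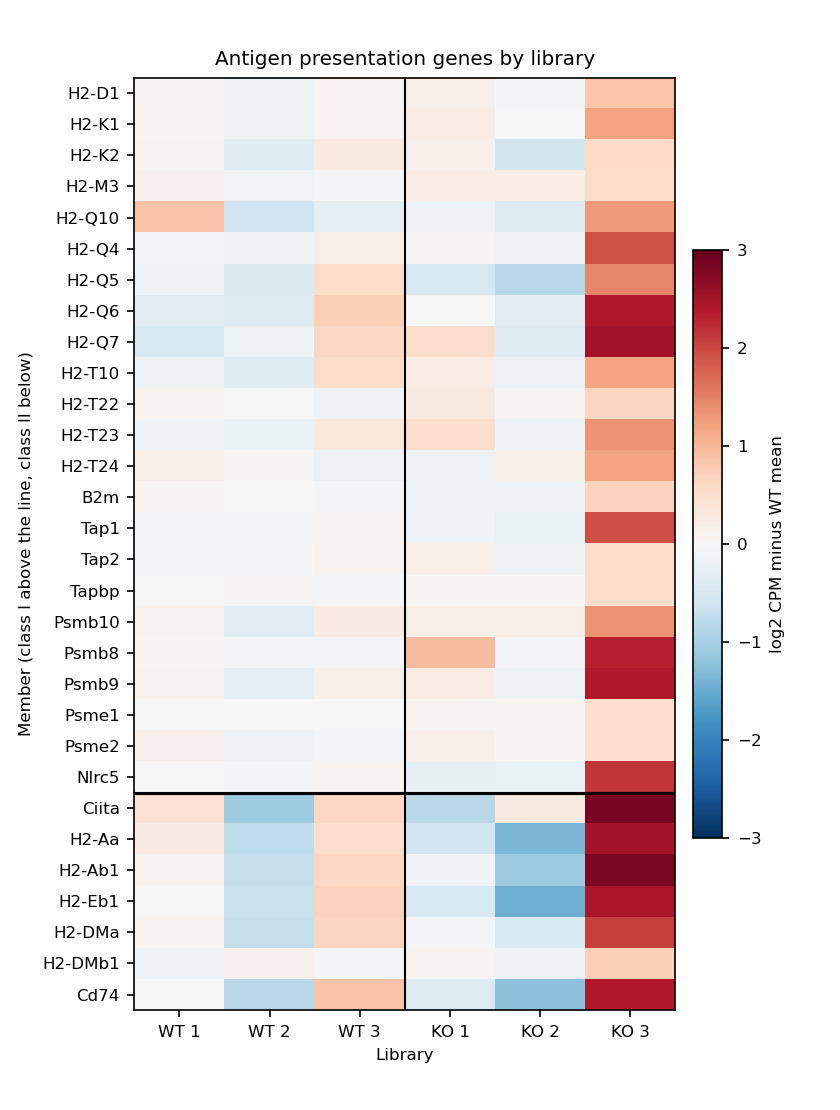
Log2 CPM minus the WT mean for the 30 tested members (vertical axis; class I above the line, class II below) in the 6 libraries (horizontal axis), with red above and blue below the WT mean. The column of KO replicate 3 is red for every member. The class II chains and Cd74 are blue in WT replicate 2 and KO replicate 2, and more faintly in KO replicate 1.

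The classical class I heavy chains were among the more abundant transcripts of the set. Values are given in the order of replicates 1, 2 and 3. H2-D1 measured 207, 180 and 217 CPM in WT and 224, 194 and 360 CPM in KO (log2 fold change 0.36 ± 0.22 SE, edgeR adjusted p = 0.446). H2-K1 measured 128, 110 and 133 CPM in WT and 145, 121 and 285 CPM in KO (0.57 ± 0.29, adjusted p = 0.39). For both, KO replicates 1 and 2 lay within or just above the WT range and KO replicate 3 stood alone. Without it the values were 0.05 ± 0.11 for H2-D1 and 0.11 ± 0.11 for H2-K1. H2-K2, which the annotation types as a pseudogene, had between 10 and 27 counts per library (0.14 ± 0.39). B2m, the light chain shared by all class I molecules, measured 453, 432 and 422 CPM in WT and 408, 401 and 705 CPM in KO (0.21 ± 0.21, adjusted p = 0.656). Its KO replicates 1 and 2 were the lowest of the 6 libraries, so that its value without KO replicate 3 was -0.11 ± 0.08 (edgeR adjusted p = 0.581).

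The non-classical heavy chains, which serve more specialised immune recognition, had 10 tested rows. H2-T23 encodes Qa-1, the ligand of NKG2A receptors on natural killer cells. It measured 14.8, 13.8 and 19.9 CPM in WT and 23.1, 14.3 and 40.6 CPM in KO (0.69 ± 0.34, adjusted p = 0.385). H2-M3, which presents formylated peptides such as those of bacteria and mitochondria, measured 6.56, 5.6 and 5.71 CPM in WT and 6.96, 6.97 and 8.74 CPM in KO (0.34 ± 0.15, adjusted p = 0.34). Its groups did not overlap. H2-T22, a ligand of some gamma-delta T cell receptors, measured 32.7, 31 and 28.1 CPM in WT and 37, 32.5 and 47.8 CPM in KO (0.36 ± 0.14, adjusted p = 0.319). KO replicate 2 lay inside the WT range of this gene.

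Genes of the Q region stood further above the other libraries in KO replicate 3. H2-Q4 measured 14.2, 13.3 and 16.3 CPM in WT and 15.4, 13.2 and 54.9 CPM in KO (0.94 ± 0.51). H2-Q6 measured 4.82, 4.57 and 10 CPM in WT and 6.14, 4.73 and 32.1 CPM in KO (1.16 ± 0.72), and H2-Q7 had a fold change of 1.37 ± 0.71. KO replicate 3 stood 3.79-fold, 5.3-fold and 5.47-fold above the mean of the other 5 libraries for H2-Q4, H2-Q6 and H2-Q7, and 1.76-fold for H2-D1. H2-Q5, H2-Q10, H2-T10 and H2-T24 had means under 1 CPM in WT, with fold changes from 0.35 to 0.57. The annotation types H2-Q5 and H2-T10 as polymorphic pseudogenes. Counts of single Q and T region rows are uncertain, since how multi-mapped reads were handled is not stated. Of the 50-base stretches of annotated transcripts, 32% of those of H2-Q6 and 34.5% of those of H2-T22 also occur in another gene, against 9.6% for H2-K1 and 12.8% for H2-D1.

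Among the genes of peptide transport and loading, Tap1 stood apart from its partners. Tap1, a subunit of the peptide transporter, measured 8.84, 8.74 and 9.44 CPM in WT and 8.3, 7.88 and 34.9 CPM in KO (0.93 ± 0.55, adjusted p = 0.444). KO replicate 3 was 4.04-fold above the mean of the other 5 libraries, and KO replicates 1 and 2 were below every WT library. Without KO replicate 3 the Tap1 value was -0.15 ± 0.13 (edgeR adjusted p = 0.615). Tap2, the other subunit, measured 28.1, 27.6 and 30.7 CPM in WT and 32.9, 25.9 and 42 CPM in KO (0.22 ± 0.16). Tapasin, Tapbp, measured 133, 134 and 128 CPM in WT and 134, 135 and 192 CPM in KO (0.22 ± 0.14, adjusted p = 0.46). For Tap2 and Tapbp KO replicate 3 was 1.45-fold above the mean of the other 5 libraries in each case. The difference between Tap1 and Tap2 was not tested.

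Interferon-gamma exchanges 3 catalytic subunits of the proteasome for the immunoproteasome subunits Psmb8, Psmb9 and Psmb10, which take the places of Psmb5, Psmb6 and Psmb7. Psmb8 had the smallest p of all members. It measured 4.19, 3.85 and 3.89 CPM in WT and 7.79, 3.87 and 20.4 CPM in KO (1.43 ± 0.53, adjusted p = 0.299). Here KO replicate 1 also stood above every WT library, while KO replicate 2 lay among them. Psmb9 measured 2.57, 1.95 and 2.73 CPM in WT and 2.78, 2.15 and 13 CPM in KO (1.31 ± 0.65, adjusted p = 0.382). Psmb10 measured 9.21, 6.67 and 10.1 CPM in WT and 9.64, 9.84 and 22 CPM in KO (0.68 ± 0.34, adjusted p = 0.382). Both therefore had KO replicates 1 and 2 at about the WT level. The constitutive subunits had log2 fold changes of 0.00 ± 0.09 for Psmb5, -0.01 ± 0.06 for Psmb6 and -0.09 ± 0.06 for Psmb7.

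Shares of reads within each pair of subunits do not depend on library scaling. Psmb8 took 13%, 14.4% and 13.6% of the reads of Psmb8 and Psmb5 in WT replicates 1, 2 and 3. In KO replicates 1, 2 and 3 it took 23.7% (95% exact binomial interval 20.5% to 27.2%), 13.6% (11% to 16.7%) and 43.9% (40.9% to 46.9%). The Psmb9 share of Psmb9 and Psmb6 reads was between 1.49% and 2.31% in the other 5 libraries and 9.57% (8.56% to 10.7%) in KO replicate 3. The Psmb10 share of Psmb10 and Psmb7 reads was between 6.88% and 10.7% in those 5 libraries and 21.5% (19.9% to 23.2%) in KO replicate 3. These intervals cover counting error only. The proteasome activator subunits Psme1 and Psme2 had smaller fold changes. Psme1 measured 49.9, 50.9 and 49.5 CPM in WT and 53.2, 53.1 and 71.7 CPM in KO (0.25 ± 0.12, adjusted p = 0.372), and Psme2 measured 54.9, 46.6 and 48.9 CPM in WT and 55.8, 53.1 and 72.6 CPM in KO (0.27 ± 0.13, adjusted p = 0.362). Psme1 did not overlap between groups, and KO replicate 2 of Psme2 lay inside the WT range.

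**Figure D2:**
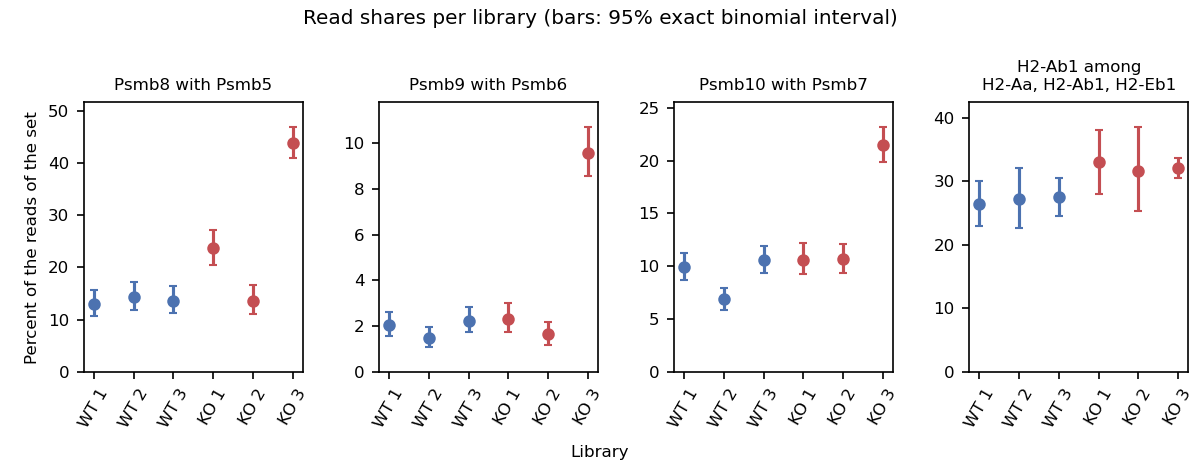
Percent of the reads of a set of genes that came from 1 of them (vertical axis) in each library (horizontal axis; blue WT, red KO), with 95% exact binomial intervals. The Psmb8, Psmb9 and Psmb10 shares are highest in KO replicate 3 (43.9%, 9.57% and 21.5%), and the H2-Ab1 share is between 26.4% and 27.5% in WT and between 31.7% and 33% in KO.

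Both transactivators were expressed at low levels. Nlrc5, the class I transactivator, measured 3.2, 3.1 and 3.31 CPM in WT and 2.73, 2.77 and 14.4 CPM in KO (1.06 ± 0.62, adjusted p = 0.444). The WT libraries were close together, KO replicates 1 and 2 were below them and KO replicate 3 was 4.77-fold above the mean of the other 5 libraries. Without KO replicate 3 the Nlrc5 value was -0.22 ± 0.19 (edgeR adjusted p = 0.646). Ciita, the class II transactivator, was covered by 12, 3 and 14 reads in WT libraries and by 3, 9 and 70 in KO libraries. Its fold change was 1.62 ± 1.01 (adjusted p = 0.465), and its KO replicate 3 was 8.5-fold above the mean of the other 5 libraries.

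Class II chains were low in 5 libraries and varied among them. H2-Aa, the alpha chain of the I-A molecule, measured 12.5, 6.2 and 15.3 CPM in WT and 7.12, 4.06 and 59.8 CPM in KO (1.07 ± 0.90, adjusted p = 0.59). H2-Ab1, its beta chain, measured 6.93, 3.93 and 10 CPM in WT and 5.98, 3.01 and 46.2 CPM in KO (1.41 ± 0.91, adjusted p = 0.478). H2-Eb1, a beta chain of I-E, measured 6.85, 4.33 and 11.1 CPM in WT and 5.05, 2.44 and 38 CPM in KO (1.04 ± 0.90, adjusted p = 0.603). All 3 had the same order of libraries: KO replicate 3 was highest, then WT replicates 3 and 1, and KO replicate 2 was lowest. Cd74, the invariant chain, shared that order, with 17.4, 9.89 and 31.8 CPM in WT and 13.3, 7.4 and 93.8 CPM in KO (0.96 ± 0.88, adjusted p = 0.625). Within WT alone, the highest library held 2.47 times the lowest for H2-Aa and 3.21 times for Cd74, against 1.2 times for H2-K1 and H2-D1. By the ratio of KO replicate 3 to the mean of the other 5 libraries, with 0.1 CPM added to both, H2-Ab1, Ciita, H2-Aa, H2-Eb1 and Cd74 took ranks 12, 16, 18, 19 and 20 of 14145.

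H2-DMa and H2-DMb1 encode chains of the peptide exchange factor, and their library orders differed. H2-DMa measured 1.29, 0.715 and 1.95 CPM in WT and 1.19, 0.86 and 5.32 CPM in KO (0.92 ± 0.70, adjusted p = 0.548), in nearly the same library order as the class II chains. H2-DMb1 measured 5.77, 6.71 and 6.05 CPM in WT and 6.55, 5.73 and 10.2 CPM in KO (0.28 ± 0.22, adjusted p = 0.562), within a narrow range outside KO replicate 3. The annotation places H2-DMb2 beside it, and 22.7% of the 50-base stretches of H2-DMb1 also occur in another gene, mostly H2-DMb2. H2-Oa and H2-Ob, chains of the H2-O regulator of peptide exchange, and H2-DMb2 had 6, 22 and 10 counts over all libraries and were not tested. H2-Eb2, H2-Ea-ps, H2-Pa and H2-Pb had 0.

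**Figure D3:**
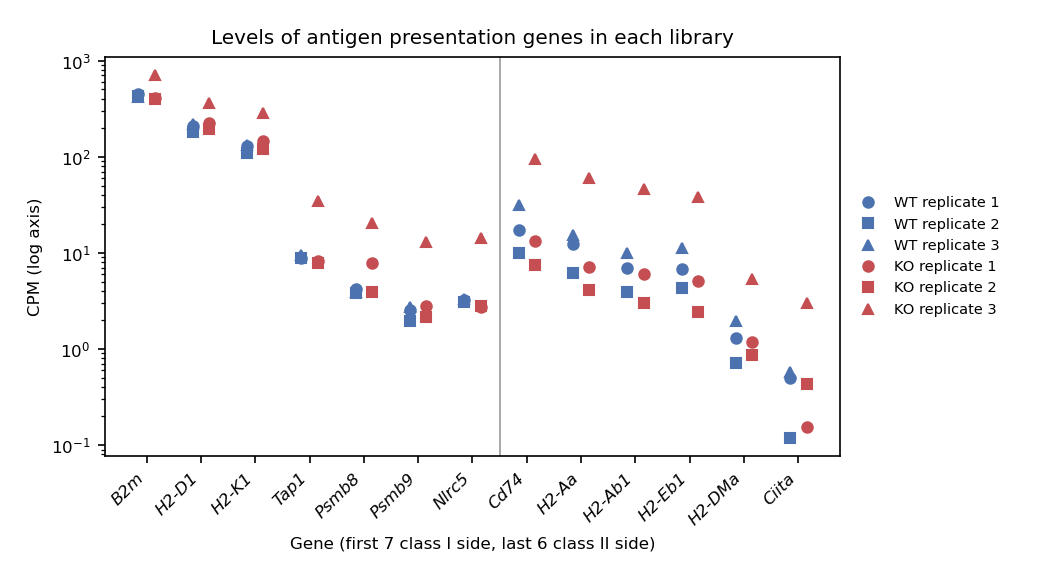
CPM of 13 members on a log axis (vertical) by gene (horizontal; 7 class I members left of the line, 6 class II members right of it), with a point for each library (blue WT, red KO; circle, square and triangle for replicates 1, 2 and 3). The triangle of KO replicate 3 is highest for each gene, and the other 5 libraries are close together for B2m and Nlrc5 and spread for H2-Aa, H2-Ab1, H2-Eb1 and Cd74.

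The proportions among class II chains were compared after their values had been seen. H2-Ab1 took 26.4%, 27.2% and 27.5% of the reads of H2-Aa, H2-Ab1 and H2-Eb1 in WT replicates 1, 2 and 3. In KO replicates 1, 2 and 3 it took 33% (28.1% to 38.1%), 31.7% (25.3% to 38.6%) and 32.1% (30.5% to 33.7%). The groups did not overlap. By level, every KO library was above every WT library for 10.5% of all rows, and no such background was computed for read shares. KO replicate 3 sat with the other KO libraries although its class II level was far above theirs. The interval of KO replicate 2, from 199 reads, includes the WT shares. The difference in shares was not tested, since it was picked out from its values.

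Class I and class II differed in level and in how they varied. Per kilobase of annotated exon, WT means were 507 CPM for B2m, 78.1 for H2-D1 and 42.1 for H2-K1, against 11.7 for Cd74, 3.83 for H2-Eb1, 2.98 for H2-Aa and 2.71 for H2-Ab1. In KO replicate 3 the per-kilobase levels were 820 for B2m and 140 for H2-D1, and 55.9 for Cd74 and 19.5 for H2-Eb1. Class I thus stayed above class II in each comparison of these genes. Summed over all heavy chain rows, class I measured 414, 364 and 438 CPM in WT and 465, 392 and 852 CPM in KO. The sum of H2-Aa, H2-Ab1 and H2-Eb1 was 26.3, 14.5 and 36.4 CPM in WT and 18.2, 9.51 and 144 CPM in KO. Against the WT mean, KO replicates 1, 2 and 3 stood at 1.15, 0.966 and 2.1 times for class I and 0.706, 0.37 and 5.6 times for class II. The sum of the 3 class II chains was 6.34%, 3.97% and 8.31% of the class I sum in WT and 3.91%, 2.43% and 16.9% in KO.

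Some marker sums of other cells were also highest in KO replicate 3. In KO replicates 1, 2 and 3 the 12 macrophage markers summed to 116, 54.4 and 139 CPM, and in WT replicates 1, 2 and 3 to 98.9, 57.1 and 88.8 CPM, and none of the 12 was at 0 in all libraries. KO replicate 3 was highest for 8 of the 10 tested. The sum was mostly Lyz2 and the C1q chains. Adgre1, which encodes the macrophage surface protein F4/80, measured 3.36, 1.51 and 2.98 CPM in WT and 2.42, 1.62 and 4.24 CPM in KO. Class II chains per unit of macrophage markers were 0.266, 0.253 and 0.41 in WT and 0.157, 0.175 and 1.04 in KO. In bulk RNA, fewer cells of a type and less RNA per cell cannot be told apart.

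Dendritic cell markers other than Zbtb46 had at most 11 counts in any library. In KO replicate 3, Flt3 had 3 counts, Clec9a 3, Xcr1 4, Cd209a 11, Itgax 10, Batf3 7 and Ccr7 1, and Flt3 was at 0 in the other 5 libraries. The dendritic list summed to between 19.3 and 26.6 CPM in all libraries, nearly all of it Zbtb46. The 6 B cell markers summed to 8.3, 3.93 and 4.64 CPM in WT and 8.97, 11.8 and 6.88 CPM in KO, and the 9 T and NK cell markers to at most 0.952 CPM. Ptprc, carried by all leukocytes, was at 2.86, 0.993 and 1.04 CPM in WT and 1.7, 0.812 and 3.33 CPM in KO. The 6 endothelial markers summed to 412, 330 and 309 CPM in WT and 374, 350 and 610 CPM in KO. Most of that sum was Pecam1 and Vwf. KO replicate 3 was highest for 5 of the 6. The exception was Kdr, highest in WT replicate 1, at 9.42, 7.95 and 4.93 CPM in WT and 5.67, 5.16 and 7.53 CPM in KO. The part of these cells in the levels of MHC genes was not tested.

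**Figure D4:**
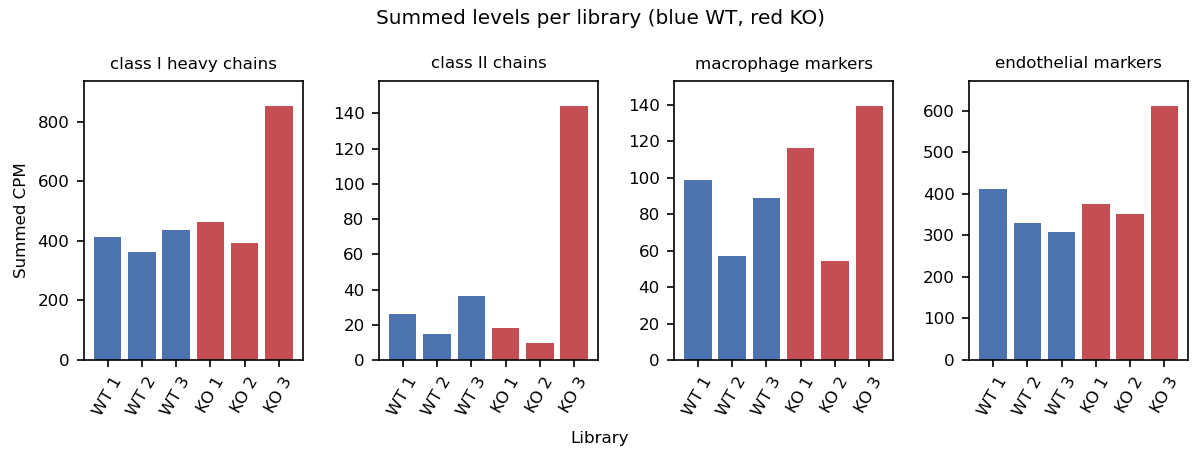
Summed CPM (vertical axes, each from 0) of class I heavy chain rows, of H2-Aa, H2-Ab1 and H2-Eb1, of macrophage markers and of endothelial markers in each library (horizontal axis; blue WT, red KO). KO replicate 3 is highest in each panel, by 5.6 times the WT mean for class II chains and by 2.1, 1.7 and 1.74 times for class I, macrophage and endothelial genes.

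When KO replicate 3 was left out, all 7 class II members had a fold change below 0, from -1.02 to -0.01, against 49.1% of all rows below 0. H2-Aa had -1.02 ± 0.41 (edgeR adjusted p = 0.375), H2-Eb1 -0.99 ± 0.46 (0.416), Cd74 -0.93 ± 0.49 (0.459) and H2-Ab1 -0.63 ± 0.44 (0.56), where WT replicate 2 still overlapped the KO libraries. Class I members were divided, with 13 above and 10 below 0, from -0.83 for H2-Q5 to 0.55 for Psmb8. The ranges of the classes overlapped, and the difference between the classes was not tested. No member was called in that fit. At an unadjusted p under 0.05 there was 1 of the 30 tested members, H2-Aa, beside 1866 of all 14353 rows. The class II median of all libraries was also smaller under limma-voom (0.33), where it was below the class I median (0.46).

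**Figure D5:**
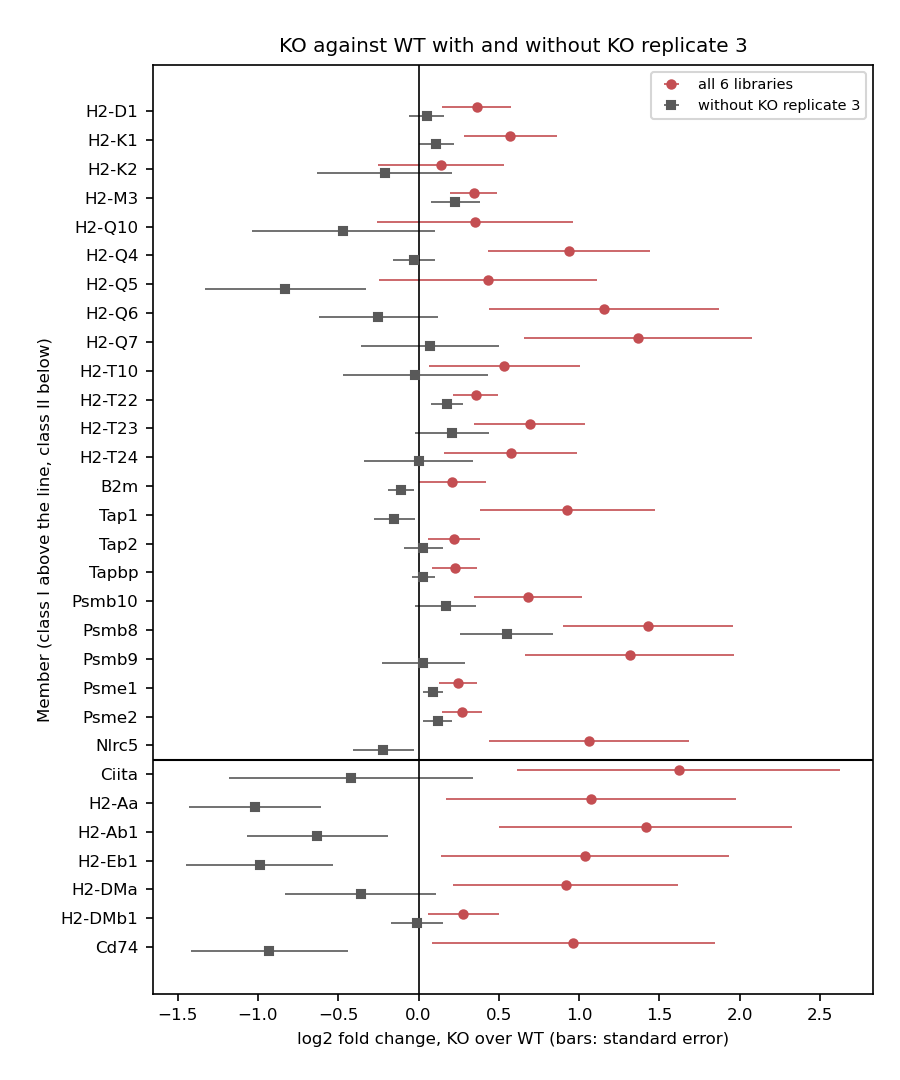
Log2 fold change, KO over WT, with standard errors (horizontal axis) for the 30 tested members (vertical axis), fitted with all 6 libraries (red circles) and without KO replicate 3 (grey squares). All red circles lie above 0. The grey squares lie near 0 for most class I members and below 0 for the 7 class II members, down to -1.02 for H2-Aa.

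Other genes of these pathways were taken from lists of antigen processing and interferon signalling, and 0 of them were called in either direction (0.00707% of all rows). Of 13 tested genes of interferon-gamma signalling, 8 were above 0 and the median was 0.05, with the highest level in KO replicate 3 for 8. Irf1, a transcription factor induced by interferon-gamma, measured 21.4, 20.3 and 19.5 CPM in WT and 25.6, 22.7 and 50.7 CPM in KO (0.70 ± 0.28, adjusted p = 0.324). All KO libraries of Irf1 lay above every WT library, as they did for 10.5% of all rows. The kinases Jak1 (-0.13 ± 0.06) and Jak2 (-0.14 ± 0.06) had values below 0. For both, all KO libraries lay below every WT library, as they did for 11.3% of all rows. Transcripts of interferon-gamma itself, Ifng, had 0 counts in all libraries, where 3 counts over all libraries would be 0.0219 CPM.

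Peptide processing genes outside the member list had 5 of 15 above 0 and a median of -0.06, with KO replicate 3 highest for 2. Tapbpl, a relative of tapasin, was 1 of those, at 7.76, 7.71 and 8.32 CPM in WT and 7.99, 8.46 and 13.8 CPM in KO (0.35 ± 0.21). Sel1l (-0.17 ± 0.06), Canx (-0.14 ± 0.07) and Tpp2 (-0.13 ± 0.08) were below 0. For each of these and for Psmb7, all KO libraries lay below every WT library (11.3% of all rows). Genes of class II processing and of the Y box and X box factors had 6 of 13 above 0 and a median of 0.00. KO replicate 3 was highest for 1 of the 13, Ctss, at 4.32, 2.42 and 2.82 CPM in WT and 4.38, 1.53 and 7.87 CPM in KO (0.54 ± 0.52). Ifi30, a lysosomal thiol reductase, had 0.30 ± 0.10 (adjusted p = 0.279), without a peak in KO replicate 3 (37.3, 35.7 and 34.3 CPM in KO, 29.3, 32.7 and 25.4 CPM in WT). All KO libraries of Ifi30 lay above every WT library (10.5% of all rows). Next by p were Nfyb (-0.15 ± 0.11), Creb1 (-0.10 ± 0.08) and March8 (-0.07 ± 0.06), and the factors Rfx5, Rfxap, Rfxank, Nfya and Nfyc had values between -0.03 and 0.05.

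Of the 26 members that were not tested, 18 had 0 counts in all 6 libraries. They include the H2-M10 rows, H2-M2, H2-M11, H2-Q1, H2-Q3, H2-T3 and H2-T9. The other 8 had at most 42 counts over the 6 libraries, that highest total being of H2-M9 (8, 4 and 7 in the WT libraries, 18, 2 and 3 in the KO libraries). Of the 56 members, 48 are annotated on chromosome 17 between positions 33915899 and 37483552 of GRCm38, B2m is on chromosome 2, Nlrc5 and Psmb10 on chromosome 8, Psme1 and Psme2 on 14, Ciita on 16 and Cd74 on 18.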

How the data were processed

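Poly(A) libraries (Illumina TruSeq Stranded mRNA, per the labels' protocols) of 3 WT and 3 KO samples were used. The deposited table holds raw counts per gene. Per the submitters' processing notes, the authors trimmed with Trimmomatic 0.36, aligned to GRCm38 with STAR 2.6.0c and counted with featureCounts (Subread 1.6.1). The sources used here state neither the annotation release nor the strand and multi-mapping settings, and reads of overlapping genes such as Tap1 and Psmb9 (212 shared bases) cannot be assigned with certainty.

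Columns were assigned by the library names of the labels. After filterByExpr (at least 10 counts, total of at least 15) and TMM scaling, rows were tested by quasi-likelihood in edgeR 4.0.16 (R 4.3.3), with genotype as the only term, a two-sided test and a Benjamini-Hochberg threshold of 0.05 over all 14145 rows. CPM use TMM effective library sizes, and log2 deviations a prior count of 2. Standard errors were derived from fold changes and F. Alternatives were DESeq2 1.42.0, its size factors, limma-voom (limma 3.58.1), other filters, leaving out mitochondrial rows, a replicate block and leaving out each library. Coordinates and exon lengths are from GENCODE M21, which names 55 of the 56 members. Tests were checked on simulated counts. Replicates differed by far more than sampling noise (chi-square per gene 15.03 to 69.29).

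Named genes followed a rule: 14 core members, the 5 members of smallest p in each class, and up to 4 genes of smallest p in each pathway list. A gene that this rule names is not reported here. Members and lists were chosen with earlier results of these data known. Members outside that rule, Ctss, the read shares and the promoter motifs were chosen after values were seen.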

Additional observations from a re-analysis of the deposited data

How the results depend on the processing

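Under the alternatives run, 0 members were called among those adjusted, which in DESeq2 were 20 of the 30 (Nlrc5, Ciita, Psmb9 and H2-DMa were among those without an adjusted p). Leaving out 1 library at a time gave class I medians between 0.03 and 0.80 and class II medians between -0.63 and 1.54, with both lowest values without KO replicate 3. The 10 named members that turned below 0 did so without KO replicate 3 only, and their values over single left-out libraries ran from -0.11 to 0.35 for B2m, -0.15 to 1.27 for Tap1, -0.22 to 1.43 for Nlrc5, -1.02 to 1.57 for H2-Aa, -0.63 to 1.92 for H2-Ab1, -0.99 to 1.54 for H2-Eb1, -0.93 to 1.49 for Cd74, -0.42 to 2.12 for Ciita, -0.36 to 1.32 for H2-DMa and -0.01 to 0.44 for H2-DMb1. The other 9 stayed above 0. At an unadjusted p under 0.05, class I members numbered 3 of 23 in edgeR, beside 2060 of all 14145 rows. With no filter they numbered 14 of 28 (2564 of 24846 rows). They numbered 16 of 23 without KO replicate 2 (2323 of 14432 rows) and 9 of 23 without KO replicate 1 (1332 of 14401 rows). Without WT replicate 1 there was 1 (1602 of 14357 rows). There were 0 in each fit that left out WT replicate 2 (2131 of 14387 rows), WT replicate 3 (1221 of 14420) or KO replicate 3 (1866 of 14353). Over all rows, calls higher and lower in KO numbered 0 and 1 in edgeR, 65 and 127 in DESeq2, and 5 and 4 with no filter. They ran from 0 to 2 higher and from 0 to 1 lower over left-out libraries, and the cause was not tested.

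The design description mentions pairs but does not state what libraries of the same replicate number have in common. Replicate numbers were therefore not treated as pairs in the main fit. Deviations of same-numbered libraries correlated at 0.107, 0.134 and -0.056, and those of differently numbered WT and KO libraries between -0.283 and 0.179. Whether the libraries are paired is not settled by these values. With a replicate block, 0 rows were called lower, and the class medians were 0.47 and 0.32. Ciita, with 3 to 70 counts per library, and the Q and T region rows below 1 CPM are limited by depth.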

Other observations

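The balance of the classical heavy chains was nearly constant outside KO replicate 3. H2-K1 took between 37.9% and 39.3% of the reads of H2-K1 and H2-D1 in the other 5 libraries, and 44.2% (95% exact binomial interval 43.4% to 45%) in KO replicate 3. B2m over the summed heavy chain rows was a CPM ratio of 1.09, 1.19 and 0.963 in the WT libraries and of 0.877, 1.02 and 0.827 in the KO libraries. Both comparisons were made after the values were seen and were not tested.

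Class I-like molecules outside the MHC had 7 tested genes, 6 of them above 0, with a median of 0.33, and KO replicate 3 was highest for 6. Mill2 measured 28.6, 24.3 and 29.4 CPM in WT and 36.9, 29.5 and 37.6 CPM in KO (0.34 ± 0.12, edgeR adjusted p = 0.279), and its groups did not overlap (10.5% of all rows had every KO library above every WT library). The iron regulator Hfe had 0.33 ± 0.18, the NKG2D ligand Ulbp1 0.97 ± 0.54 at under 1 CPM and Mr1, which presents vitamin metabolites of microbes, -0.10 ± 0.09. The neonatal Fc receptor chain Fcgrt, which also pairs with B2m, measured 146, 147 and 137 CPM in WT and 142, 149 and 156 CPM in KO (0.06 ± 0.06), and its KO replicate 3 lay close to the other libraries.

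Fcgr1, a macrophage Fc receptor gene known to respond to interferon-gamma, had 9, 2 and 12 counts in WT and 5, 4 and 43 counts in KO. It was not tested, and at such counts its order among the 5 libraries other than KO replicate 3 is not resolved. It was picked out from the 12 macrophage markers after values were seen.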
